A study of Saccharomyces cerevisiae with 18 samples.

Results

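Catalases, superoxide dismutases and peroxidases are the enzymes with which yeast removes superoxide and hydrogen peroxide. 10 such genes of Saccharomyces cerevisiae were followed here, chosen by gene symbol with earlier results of these data known. They included the superoxide dismutase genes SOD1 (YJR104C) and SOD2 (YHR008C), the copper chaperone gene CCS1 (YMR038C) and the catalase genes CTT1 (YGR088W) and CTA1 (YDR256C). The others were the peroxiredoxin genes TSA1 (YML028W), TSA2 (YDR453C), AHP1 (YLR109W) and PRX1 (YBL064C), and the cytochrome c peroxidase gene CCP1 (YKR066C). All 10 were among the 5449 genes tested, each with 1 probe set on the Affymetrix Yeast Genome 2.0 array. Values are log2 signals of total RNA, so a difference of 1 is a doubling of signal.

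Superoxide leaks from the respiratory chain and is turned into hydrogen peroxide by Sod1p in the cytosol and Sod2p in the mitochondrial matrix. Catalases split hydrogen peroxide into water and oxygen, whereas peroxiredoxins reduce it at a reactive cysteine that thioredoxin or glutathione then restores, and Ccp1p reduces it with electrons from cytochrome c. Oxidative protein folding in the endoplasmic reticulum (ER) is another source of hydrogen peroxide, because the oxidase Ero1p passes electrons from thiols to oxygen. Several of these genes are textbook targets of the peroxide-responsive factors Yap1p and Skn7p or of the general stress factors Msn2p and Msn4p.

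The study asked how secreting a foreign protein burdens yeast with and without the transcription factor Hac1p, which switches on the unfolded protein response. The HAC1 deletion strains carried kanMX in place of HAC1 and were dA, which secreted α-amylase, dI, which secreted insulin precursor (IP), and dN, with the empty vector. The α-amylase DNA had been amplified from a Saccharomyces kluyveri strain. The wild-type (WT) strains were WA, WI and WN, with the same 3 vectors. All 6 derived from CEN.PK 113-5D, a mating type a strain that lacks a working URA3 gene, and all carried a high-copy plasmid with a URA3 marker, p426GPD, in which the strong glycolytic TDH3 promoter and a shared YAP3 and TA57 leader drove secretion. Each strain was grown in 3 bioreactor batches on glucose and sampled in mid-exponential growth (n = 3 arrays per strain, 18 in all). How many independent transformants stood behind a strain is not given in the sources used here.

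The labels held against the deleted gene, whose probe set was above the array background in 0 of 9 deletion arrays and in 9 of 9 WT arrays. HAC1 averaged 1.48 ± 0.35 in dA, 1.16 ± 0.09 in dI and 1.31 ± 0.12 in dN, against 10.7 ± 0.190 in WA, 10.8 ± 0.0463 in WI and 10.6 ± 0.0957 in WN (SD, n = 3 each). The array background, the 95th percentile of 5430 probe sets outside the tested ones, lay between 4.38 and 4.63. The third dN array stood apart: its residuals over all genes had an SD of 0.36, the second dN array's 0.25, and those of the other 16 arrays 0.08 to 0.18. Its values differed from the mean of the other dN arrays by -1.01 for TSA2, -0.91 for CTT1, -0.54 for PRX1, 0.31 for CCS1 and -0.28 for TSA1. Results that rest on dN are therefore given with and without it where that matters. The mating type fitted the labels in that all 5 a-specific genes read were above background on all 18 arrays, although 2 of them, MFA1 and BAR1, were lower in each deletion strain than in its WT. Of 4 α-specific genes, MF(ALPHA)2 was at background on all arrays, and MF(ALPHA)1, STE3 and SAG1 were above it on 16, 14 and 18.

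Loss of HAC1 lowered TSA1 in all 3 vector backgrounds, and secretion of a foreign protein raised PRX1 in 3 of 4 comparisons with the empty vector. With the empty vector, SOD2 was higher and TSA1 and CCP1 were lower in dN than in WN, 3 of 10 genes at a Benjamini-Hochberg adjusted p under 0.05 in limma, against 21.5% of all genes. With IP, SOD2 was higher and TSA1 lower in dI than in WI, 2 of 10 genes against 20.2% of all genes. With α-amylase, TSA1, CTT1 and CTA1 were lower in dA than in WA, 3 of 10 against 23.2% of all genes, and the CTA1 call lay at background. With 10 genes, these counts were close to such shares. Genes at background on all arrays of a compared strain were left out of the medians. Over the rest, the median log2 fold change was -0.11 in dA (8 genes), -0.06 in dI (9 genes) and -0.22 in dN (9 genes). The all-gene medians were 0.01 in dA, 0.04 in dI and 0.03 in dN.

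With all arrays at equal weight, protein secretion was followed by calls in 1 direction, higher, among the 10 genes. α-amylase raised PRX1, CTT1 and SOD2 in WA over WN, and CTA1 was called at background, which made 4 of 10 genes against 4.79% of all genes (3.25% called higher). IP called none of the 10 in WI over WN in limma, against 0.294% of all genes, with 4 of the 10 at an unadjusted p under 0.05 and 2 called with array quality weights. Without HAC1, IP raised PRX1, CTT1, SOD2 and CCP1 in dI over dN, with CTA1 again at background, 5 of 10 against 12.8% of all genes (7.05% higher). α-amylase raised PRX1 and CCP1 in dA over dN, 2 of 10 against 11.8% of all genes (5.91% higher). With array quality weights, SOD1, TSA1 and TSA2 were also called lower there (adjusted p = 0.0058, 0.0276 and 0.00403), where 2045 of 5449 genes were called. Without the third dN array, SOD1 and TSA2 were called lower (0.0237 and 0.00203), where 24.7% of all genes were called. TSA2 was at background on all dA arrays. Genes at background on all arrays of a compared strain were again left out of the medians. These were 0.13 in dA over dN, 0.32 in dI over dN, 0.17 in WA over WN and 0.01 in WI over WN. The all-gene medians were -0.02 in dA, -0.02 in dI, -0.004 in WA and -0.02 in WI.

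**Figure D1:**
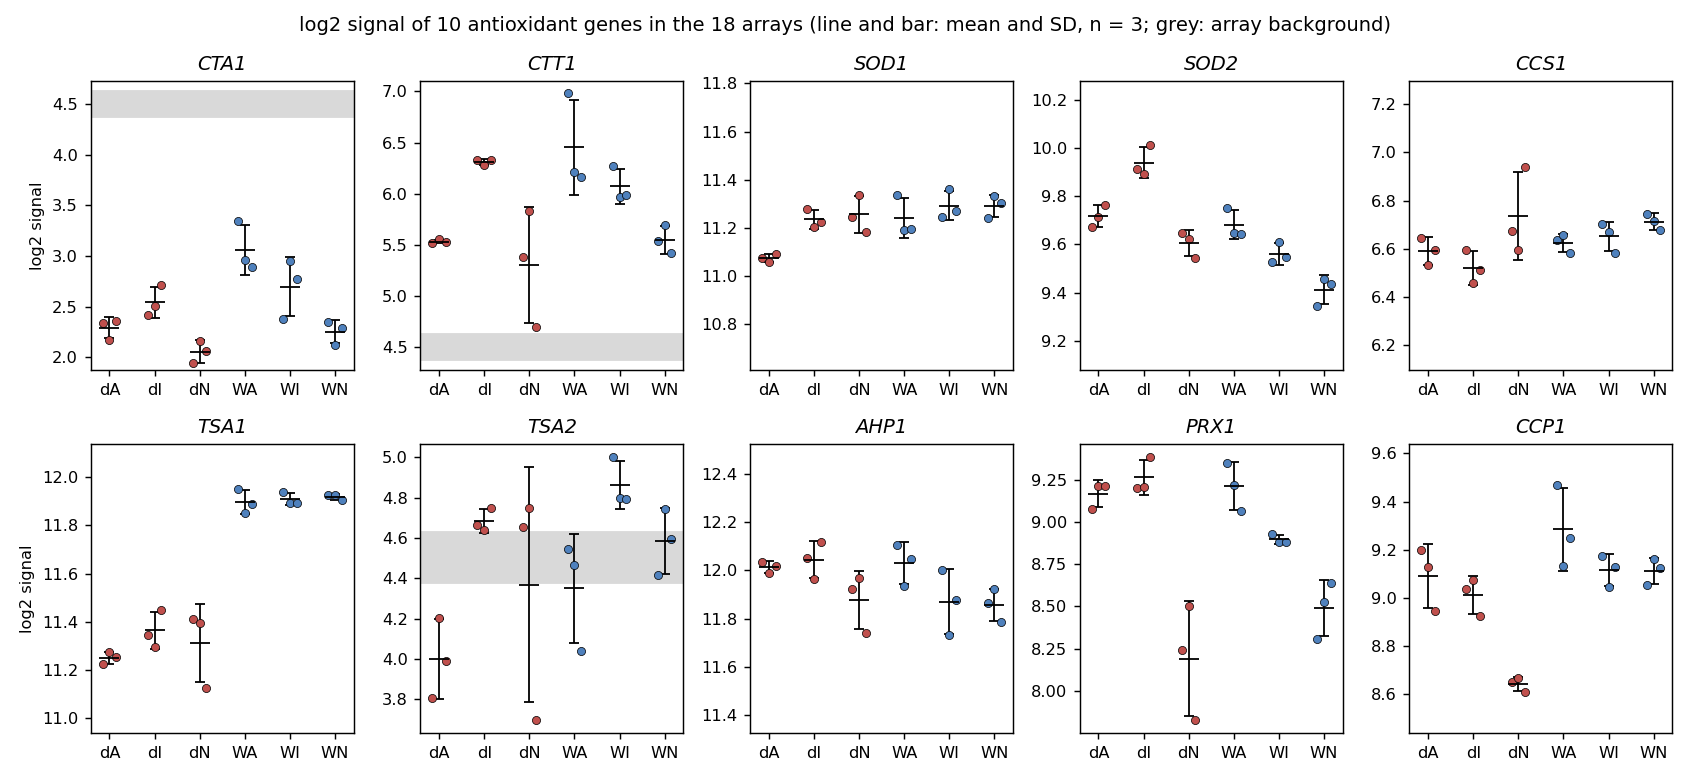
log2 signal of each of the 10 genes (vertical axes, which differ between panels) in the 18 arrays, by strain; red points are HAC1 deletion arrays, blue points WT arrays, lines and bars the mean and SD of 3 arrays, and the grey band in 3 panels the range of the array background. TSA1 lies lower in all 9 deletion arrays than in any WT array, and CTA1 stays below the band in all 18.

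Among the superoxide dismutases, SOD1, which encodes the abundant copper-zinc enzyme of the cytosol, hardly varied. Its signal was 11.08, 11.06 and 11.09 in dA, and between 11.19 and 11.36 in the other 15 arrays. The 3 dA arrays were thus the lowest of the 18, but no comparison was called. dA differed from WA by -0.17 ± 0.06 (SE, limma adjusted p = 0.0591) and from dN by -0.18 ± 0.06 (adjusted p = 0.0657). Both differences were called without the third dN array (adjusted p = 0.037 and 0.0237) and with array quality weights (0.0194 and 0.0058). The means of the other 5 strains lay within 0.06 of each other and their arrays overlapped.

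CCS1, whose product loads copper into Sod1p, was called in no comparison with all arrays. Its strain means ran between 6.52 ± 0.07 in dI and 6.74 ± 0.18 in dN (SD, n = 3), and the arrays of each strain overlapped those of the next in order. The largest difference, dI minus dN, was -0.21 with a 95% interval from -0.38 to -0.05 (adjusted p = 0.0833), and it turned on single dN arrays, at -0.11 without the third (adjusted p = 0.255) and -0.29 without the second (adjusted p = 0.02).

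SOD2, the manganese enzyme of the mitochondrial matrix, was highest in dI and lowest in WN. Its signal was 9.91, 9.89 and 10.01 in dI, above every other array. It was 9.67, 9.71 and 9.76 in dA and 9.65, 9.62 and 9.54 in dN. The WT arrays had 9.75, 9.65 and 9.64 in WA, 9.53, 9.61 and 9.55 in WI and 9.34, 9.45 and 9.44 in WN. The dI arrays were therefore separate from all others at the top and the WN arrays at the bottom, while dA, WA, dN and WI overlapped step by step. SOD2 was 0.38 ± 0.06 higher in dI than in WI (1.30-fold, SE, limma adjusted p = 0.000243) and 0.34 ± 0.06 higher in dI than in dN (adjusted p = 0.00176). It was 0.27 ± 0.06 higher in WA than in WN (adjusted p = 0.0153), which was lost without the first WN array (adjusted p = 0.0881), whose label words the lysis of cells differently from the other 17, or the first WA array (0.0537). With only the compared strains in the fit, neither dI over dN (adjusted p = 0.133) nor WA over WN (0.0933) was called. The rise in dN over WN, 0.19 ± 0.06 (adjusted p = 0.0305), was lost without any 1 of the 3 WN arrays or the first dN array (adjusted p = 0.0501 to 0.125), with the replicate number as a block (0.16, adjusted p = 0.136) and with only dN and WN in the fit (adjusted p = 0.23).

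Of the catalases, CTT1 encodes the cytosolic enzyme, a classic general stress gene, and had the widest range of strain means of the 10 genes, 1.15. Its signal was 5.52, 5.55 and 5.53 in dA, 6.32, 6.28 and 6.33 in dI, and 5.38, 5.83 and 4.70 in dN. In WT it was 6.99, 6.21 and 6.16 in WA, 6.27, 5.97 and 5.98 in WI, and 5.54, 5.69 and 5.42 in WN. WA and dI were the highest and overlapped, WI came next, and WN, dA and dN overlapped at the low end, with the third dN array the lowest of all and only 0.32 above its array's background.

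CTT1 was 1.01 ± 0.23 higher in dI than in dN (2.01-fold, SE, limma adjusted p = 0.0102), and 0.70 higher without the third dN array (adjusted p = 0.02), but it was not called with only dI and dN in the fit (adjusted p = 0.156). It was 0.90 ± 0.23 higher in WA than in WN (1.87-fold, adjusted p = 0.0363), but that call was lost when any 1 of 9 arrays was left out, and the difference was 0.64 without the first WA array (adjusted p = 0.115), which at 6.99 lay well above its 2 replicates. The log2 fold change of CTT1 in dA over WA was -0.92 ± 0.23 (1.89-fold lower, adjusted p = 0.009), and -0.65 without the first WA array (adjusted p = 0.0516). In dA over dN the difference was 0.23 with a 95% interval from -0.27 to 0.72, and -0.07 without the third dN array. In WI over WN it was 0.52 (adjusted p = 0.815), although all 3 WI arrays were above all 3 WN arrays.

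CTA1, the catalase of peroxisomes and mitochondria, was not above background on any of the 18 arrays. Its means were 2.29 in dA, 2.54 in dI, 2.06 in dN, 3.06 in WA, 2.70 in WI and 2.25 in WN. limma called 3 of its differences, dA lower than WA (adjusted p = 0.001), WA higher than WN (0.00349) and dI higher than dN (0.0357), but with signals this low no fold change is given, and the last call was lost with the replicate block (adjusted p = 0.144). Of 9 genes of peroxisomes and fatty acid use, 5 were lower and 0 higher in dA than in WA, with a median of -0.52, against 23.2% of all genes called. They were PEX11, a peroxisome division gene, at -0.52 (adjusted p = 0.000332), and FOX2, a β-oxidation enzyme gene, at -0.54 (adjusted p = 0.0041), both above background on all 18 arrays, and POX1, FAA2 and POT1, which had dA means of 3.73, 3.67 and 3.07 below background and were above it on 10, 6 and 0 of 18 arrays.

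**Figure D2:**
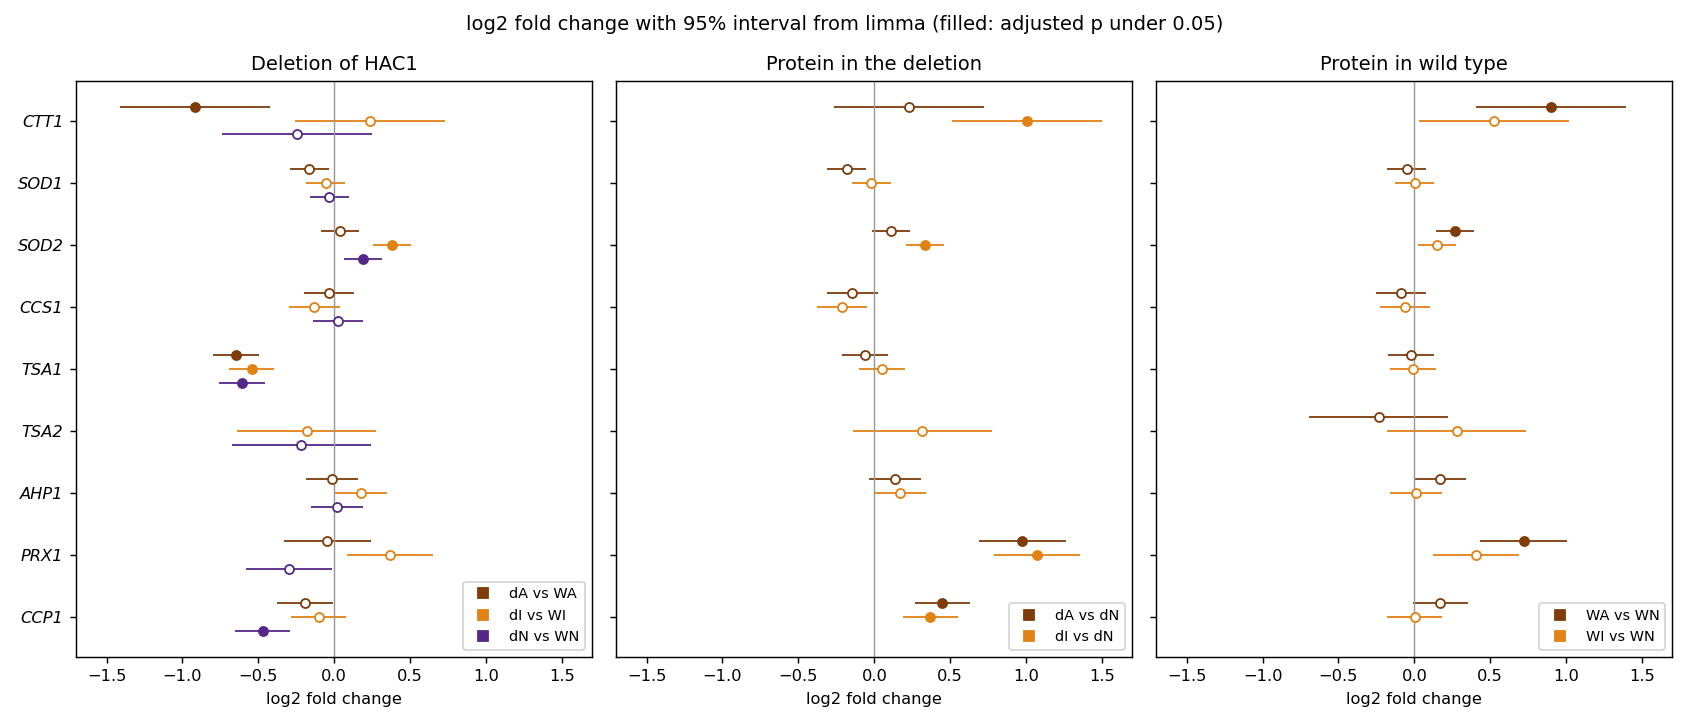
log2 fold change (horizontal axes) with its 95% interval from limma for HAC1 deletion (left), secretion without HAC1 (middle) and secretion in WT (right); filled points have an adjusted p under 0.05, and CTA1 and the dA comparisons of TSA2, where a strain was at background on all arrays, are not drawn. TSA1 sits near -0.6 in all 3 deletion comparisons and near 0 in the other panels, and PRX1 is near 1 in both comparisons without HAC1.

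TSA1, the major cytosolic peroxiredoxin and also a chaperone, was called lower in all 3 deletion comparisons. With all arrays at equal weight it was called in no other comparison. Its signal was 11.22, 11.27 and 11.26 in dA, 11.35, 11.30 and 11.45 in dI, and 11.41, 11.40 and 11.13 in dN. In WT it was 11.95, 11.85 and 11.89 in WA, 11.94, 11.89 and 11.90 in WI, and 11.92, 11.93 and 11.91 in WN. No deletion array overlapped a WT array, and the lowest WT strain mean exceeded the highest deletion strain mean by 0.53.

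The log2 fold change of TSA1 was -0.65 ± 0.07 in dA over WA (1.57-fold lower, SE, limma adjusted p = 7.74e-06), -0.54 ± 0.07 in dI over WI (1.46-fold lower, adjusted p = 4.04e-05) and -0.61 ± 0.07 in dN over WN (1.52-fold lower, adjusted p = 1.35e-05). Each call held under all 25 settings tried, and without the third dN array the dN value was -0.51. Secretion of either protein changed TSA1 little: the differences were -0.06 in dA over dN (95% interval -0.21 to 0.09), 0.05 in dI over dN (-0.10 to 0.20), -0.02 in WA over WN (-0.17 to 0.13) and -0.01 in WI over WN (-0.16 to 0.14). With array quality weights, TSA1 was called lower in dA than in dN (-0.14, limma adjusted p = 0.0276). As a description over the 18 arrays, the genes whose signal ran closest to that of TSA1 were ACB1 (Pearson r = 0.994), which encodes the acyl-CoA-binding protein, ADD37 (0.993), ARF2 (0.987), an ADP-ribosylation factor of vesicle transport, RIB1 (0.986), a riboflavin synthesis gene, and MSP1 (0.986). The arrays of such a correlation share strains, and TSA1 was picked for this after its values were seen.

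TSA2, a close paralogue of TSA1 with normally low expression, lay near background, above it on 11 of 18 arrays. Its signal was 3.81, 4.20 and 3.99 in dA, on none of them above background, and 4.66, 4.64 and 4.75 in dI, on all of them above. The other strains had 4.66, 4.75 and 3.70 in dN, 4.54, 4.47 and 4.04 in WA, 5.00, 4.80 and 4.79 in WI and 4.41, 4.75 and 4.60 in WN. dA was below dI without overlap, by at least 1.15-fold when the dA signal is set no lower than background. With all arrays at equal weight this difference was not called (limma adjusted p = 0.144). The difference was called without the third dN array (adjusted p = 0.00495), with only dA and dI in the fit (0.00503) and with array quality weights (0.0016). In the fit with equal weights on all arrays no comparison of TSA2 was called. With array quality weights, dA was lower than dN (adjusted p = 0.00403) and WA lower than WI (-0.57, adjusted p = 0.0135), and without the third dN array dA was lower than dN (adjusted p = 0.00203) and than WA (0.0437). Whether its probes also bind the far brighter TSA1 message was not tested.

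AHP1, a second abundant cytosolic peroxiredoxin that prefers alkyl hydroperoxides, had the narrowest range of strain means, 0.19. The dA arrays had 12.04, 11.99 and 12.02, the dI arrays 12.05, 11.97 and 12.12 and the dN arrays 11.92, 11.97 and 11.74. The WA arrays had 12.10, 11.93 and 12.05, the WI arrays 12.00, 11.73 and 11.88 and the WN arrays 11.86, 11.92 and 11.79. Most strains overlapped, and no comparison was called. The largest differences were 0.17 in dI over WI (adjusted p = 0.146, and 0.00981 with array quality weights) and 0.17 in WA over WN (adjusted p = 0.281). 

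PRX1, the mitochondrial 1-cysteine peroxiredoxin, was called higher in 3 of the 4 secretion comparisons. Its signal was 9.07, 9.21 and 9.21 in dA, 9.20, 9.21 and 9.38 in dI, and 8.24, 8.50 and 7.83 in dN. In WT it was 9.35, 9.22 and 9.06 in WA, 8.93, 8.88 and 8.88 in WI, and 8.31, 8.53 and 8.64 in WN. dI, WA and dA overlapped at the top, WI lay between, and WN and dN overlapped at the bottom, so every secreting strain was above both empty vector strains.

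PRX1 was 0.97 ± 0.13 higher in dA than in dN (1.96-fold, SE, limma adjusted p = 0.000239) and 1.07 ± 0.13 higher in dI than in dN (2.10-fold, adjusted p = 8.54e-05). Without the third dN array these were 0.79 and 0.89, both still called (adjusted p = 0.000104 and 4.43e-05). With only dA and dN in the fit, the rise in dA was not called (adjusted p = 0.0555). It was 0.72 ± 0.13 higher in WA than in WN (1.65-fold, adjusted p = 0.00536), a call that held under every setting tried. In WI over WN it was 0.41 ± 0.13 (95% interval 0.12 to 0.69) and was not called (adjusted p = 0.494), except with array quality weights (adjusted p = 0.0104). The IP effect was 0.67 ± 0.19 larger without HAC1 than with it, and this interaction was not called (adjusted p = 0.175), and it was 0.49 without the third dN array (adjusted p = 0.133). It was called under 2 of 25 settings, without the second dN array (0.82, adjusted p = 0.0228) and with array quality weights (0.56, adjusted p = 0.0108).

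CCP1, the cytochrome c peroxidase of the intermembrane space, stood apart in 1 strain, dN. Its signal was 9.20, 9.13 and 8.94 in dA, 9.04, 9.07 and 8.92 in dI, and 8.65, 8.67 and 8.61 in dN. In WT it was 9.47, 9.13 and 9.25 in WA, 9.17, 9.05 and 9.13 in WI, and 9.05, 9.16 and 9.12 in WN. The 3 dN arrays lay below all 15 others, which overlapped from strain to strain.

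The log2 fold change of CCP1 in dN over WN was -0.47 ± 0.09 (1.39-fold lower, SE, limma adjusted p = 0.000994), also without the third dN array (-0.45, adjusted p = 0.00268). It was 0.45 ± 0.09 higher in dA than in dN (adjusted p = 0.00316) and 0.37 ± 0.09 higher in dI than in dN (adjusted p = 0.0102). These 3 comparisons use the same dN arrays. With only the compared strains in the fit, the rises in dA and dI were not called (adjusted p = 0.0988 and 0.107). The deletion effect was -0.19 in dA over WA (adjusted p = 0.118, and 0.0442 without the second WA array) and -0.10 in dI over WI (adjusted p = 0.446), and neither interaction was called: the IP effect was 0.37 larger without HAC1 (adjusted p = 0.252) and the α-amylase effect 0.28 larger (adjusted p = 0.341). Both were called with array quality weights (adjusted p = 0.035 and 0.0364).

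Direct comparison of the proteins called none of the 10 genes. α-amylase against IP gave 0 of 10 in dA over dI in limma, against 0.991% of all genes, with 4 at an unadjusted p under 0.05 and 4 called with array quality weights, and 0 of 10 in WA over WI, against 0.496% of all genes, with 3 at an unadjusted p under 0.05 and 1 called with array quality weights. In dA over dI, the log2 fold changes were -0.78 for CTT1 (95% interval -1.27 to -0.28, adjusted p = 0.131) and -0.22 for SOD2 (-0.35 to -0.10, adjusted p = 0.0862). 6 of the 10 genes had all dA arrays below all dI arrays, against 16.4% of all genes. Among these, CTA1 was at background on all 18 arrays and TSA2 on all dA arrays, and the others were CTT1, SOD1, SOD2 and TSA1. Without the third dN array, whose only part here is in the shared variance, CTT1 and SOD2 were called (adjusted p = 0.0135 and 0.0287).

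The interactions between protein and deletion called 0 of 10 genes for IP, against 0.716% of all genes, and 0 of 10 for α-amylase, against 1.34%, with 3 and 2 genes at an unadjusted p under 0.05 and 2 called in each with array quality weights. For CTT1, the α-amylase effect was 0.67 smaller without HAC1 (difference -0.67 ± 0.33, adjusted p = 0.409), and it was called without the third dN array (-0.98, adjusted p = 0.0293). A further interaction, added after the values were seen, set the deletion effect with α-amylase against that with IP and called 0 of 10 against 1.6% of all genes. There CTT1 differed by -1.16 ± 0.33 (adjusted p = 0.0964) and SOD2 by -0.34 ± 0.08 (adjusted p = 0.0527), and both were called without the third dN array (adjusted p = 0.00993 and 0.018).

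The regulators' other targets were set beside the 10 genes. Of 19 other textbook Msn2p and Msn4p targets, 15 rose and 0 fell in dA over dN, 17 rose and 0 fell in dI over dN, 12 rose and 0 fell in WA over WN and 5 rose and 0 fell in WI over WN. Of all genes, 5.91% were called higher in dA, 7.05% in dI and 3.25% in WA, and 0.294% were called either way in WI. The median was 1.13 in dA over dN, 1.20 in dI over dN, 0.81 in WA over WN and 0.58 in WI over WN. SOL4, a pentose phosphate enzyme gene, had the smallest adjusted p in each, at 2.09 in dA (adjusted p = 2.06e-08), 2.24 in dI (5.58e-09), 1.39 in WA (3.13e-06) and 0.99 in WI (0.000829). GPH1, glycogen phosphorylase, rose by 2.42 in dA, 1.87 in dI, 1.44 in WA and 0.95 in WI. Without the third dN array 15 were higher in dA, 17 in dI, 16 in WA and 11 in WI, and 0 were lower. The first 2 comparisons are measured from the dN arrays, where the list median was -0.35 in dN over WN. There 4 fell and 0 rose, a count close to the 21.5% of all genes called either way. Without the third dN array 3 fell and 0 rose, against 21% of all genes, with a median of -0.10. In dI over WI 8 rose and 0 fell (median 0.45), against 20.2% of all genes called either way. In dA over WA 2 rose and 2 fell (median -0.04), against 23.2%. MSN4 itself rose in dA over dN (0.60, adjusted p = 0.00207), dI over dN (0.52, 0.00479) and WA over WN (0.57, 0.00551).

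Among 8 other Yap1p targets, 0 rose in any of these 4 comparisons. The medians were -0.11 in dA over dN, -0.07 in dI over dN, -0.08 in WA over WN and -0.03 in WI over WN. GSH1, the first enzyme of glutathione synthesis, was lower in dA than in dN (-0.40, adjusted p = 0.0495), and ATR1, a multidrug exporter gene, was lower in dI than in dN (-0.89, adjusted p = 0.00399). Without the third dN array, 2 were lower in dA over dN, 3 in dI over dN, 1 in WA over WN and 0 in WI over WN, and again 0 were higher. SRX1, whose sulfiredoxin repairs over-oxidised Tsa1p, had a log2 fold change of 1.26 in dI over dN that was not called. Its dN mean of 4.53 lay within the range of the array background, and it was above background on 12 of 18 arrays. SRX1 is named because of the size of this change, after its value was seen.

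The genes of enzymes that restore peroxiredoxins changed in few cases, with list medians between -0.01 and 0.10 over the 7 deletion and secretion comparisons. Of 14 thioredoxin and glutathione genes, 4 of which (TRX2, TRR1, SRX1 and GSH1) are also on the Yap1p list, the only calls in the deletion and secretion comparisons were GRX1, a glutaredoxin, higher in dI than in dN (0.39, adjusted p = 0.0424), GSH1 lower in dA than in dN, and GSH2, the second enzyme of glutathione synthesis, higher in dA than in WA (0.21, adjusted p = 0.0143). Without the third dN array, 0 were higher and 2 lower in each of dA and dI over dN, and 3 were higher and 0 lower in dN over WN. Of 4 other peroxidase genes, GPX2 was lower in dA than in dN (-0.63, adjusted p = 0.00161), in dI than in dN (-0.39, adjusted p = 0.0271) and in dA than in WA (-0.33, adjusted p = 0.0373), and HYR1, a glutathione peroxidase-like sensor of Yap1p, was higher in dI than in WI (0.20, adjusted p = 0.0499) and in dN than in WN (0.20, adjusted p = 0.0488). The medians of these 4 genes lay between -0.12 and 0.08 in the 7 comparisons.

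**Figure D3:**
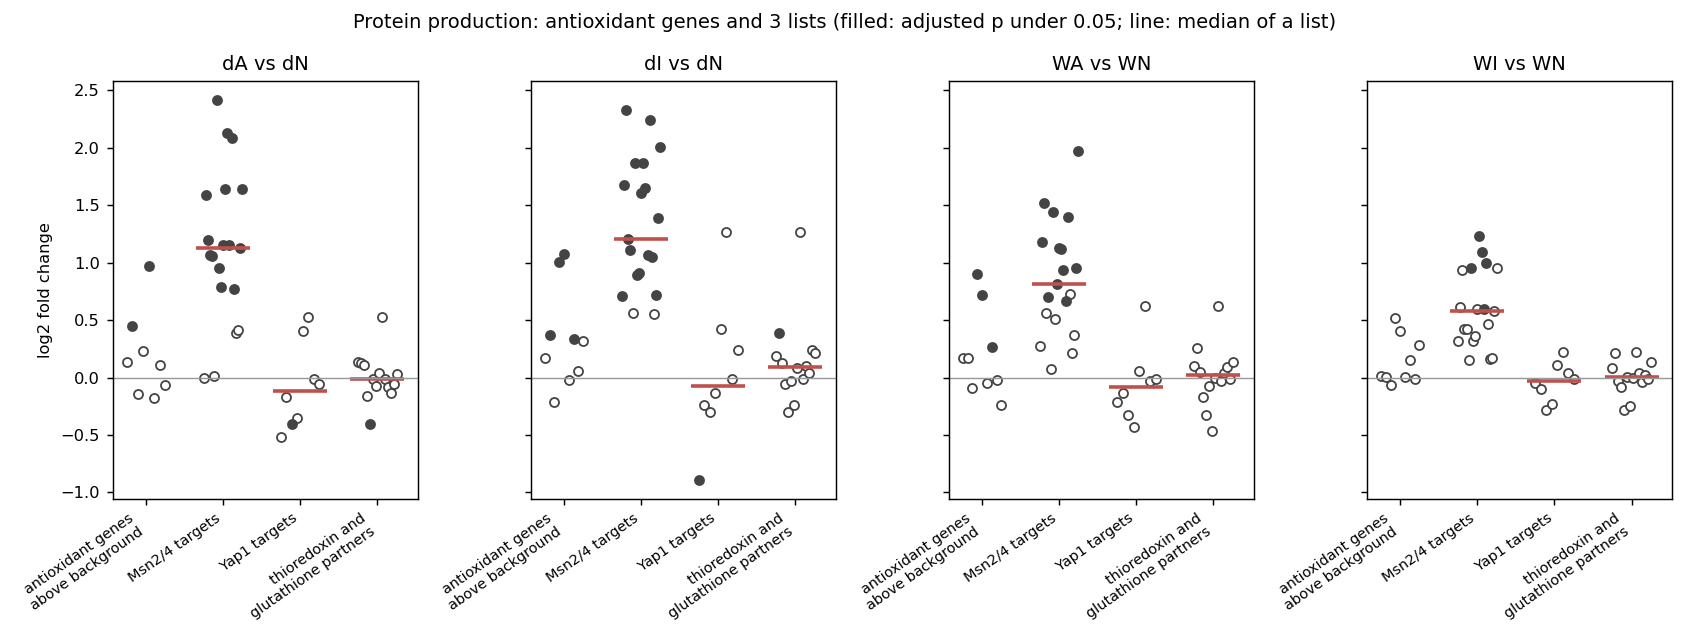
log2 fold change (vertical axis) of the antioxidant genes above background and of 3 gene lists in the 4 secretion comparisons; each point is a gene, filled where the adjusted p was under 0.05, and red lines mark list medians. Antioxidant genes at background on all arrays of a compared strain are not drawn. The Msn2p and Msn4p targets lie above 0 with medians of 0.58 to 1.20, and the Yap1p targets scatter around 0.

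The genes closest to CTT1 over the 18 arrays, by Pearson r as a description, were YDR262W (0.942), HBT1 (0.927), FUN19 (0.913), FMP16 (0.912) and ALD3 (0.906), the last a stress-induced aldehyde dehydrogenase gene on the Msn2p and Msn4p list. For CCP1, the cytochrome c isoform gene CYC7, itself a stress and low oxygen gene, rose by 2.37 in dA over dN (adjusted p = 1.31e-06), 2.30 in dI over dN (1.84e-06) and 1.47 in WA over WN (0.000248), while CYC1, the main isoform, was called in none. CYB2, a cytochrome c reductase using lactate, was lower in dN than in WN (-0.45, adjusted p = 0.0134) and higher in dA (0.67, 0.0016) and dI (0.49, 0.0116) than in dN. The median of these 3 genes ran between -0.26 and 0.67 over the 7 comparisons.

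Markers of the culture's state were read beside these results. Of 9 genes that glucose represses, 1 rose in dA over dN and 3 rose in dI over dN, 0 rose in WA or WI over WN, and 0 fell in these 4. The 3 in dI were ICL1 (0.46, adjusted p = 0.0055), ADH2 and FBP1, and ADH2 and FBP1 were at background on all 18 arrays. The list median was 0.01 in dA over dN and 0.33 in dI over dN. Without the third dN array, 0 rose and 3 fell in dA over dN (median -0.09) and 2 rose and 0 fell in dI over dN (median 0.26). Their part in the rises of PRX1, CTT1, SOD2 and CCP1 was not tested.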

How the data were processed

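RNA of 18 cultures was hybridised to Affymetrix Yeast Genome 2.0 arrays. The authors corrected background by RMA on perfect match probes, normalised arrays by qspline and summarised by median polish, and deposited log2 signals; the scans were not used here, so background correction could not be varied. Of 10928 probe sets, 7244 had 1 gene symbol, 1 had several and 3683 were unnamed, and 5498 matched S. cerevisiae genes. For 47 genes with several probe sets the brightest was kept, which left 5449 genes. 0 value columns went unused. limma 3.58.1 in R 4.3.3 fitted a mean per strain over all arrays with moderated variances (empirical Bayes), on 12 residual degrees of freedom. P-values were adjusted by the Benjamini-Hochberg method across the whole table and called under 0.05, and the procedure was tested on simulated data. Exact permutation of 3 against 3 arrays cannot go below p = 0.1 and was not used. The precision rests on 3 arrays a strain.

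The 10 genes and all lists were chosen with earlier results of these data known. All 10 genes are reported. From each list, its counts, its median or the range of its medians, and up to 3 genes with the smallest adjusted p in a comparison were taken, and for the gene with the widest range of means the 5 genes of highest correlation. Groups came from the sample titles; 1 dN title has no replicate number and counts as replicate 1, and the label of WN replicate 1 describes another lysis of the cells than the other 17. Same-numbered arrays deviated together in WA and WI (r = 0.402 to 0.675) and in dA and dI (0.116 to 0.356), which pairs them by the data. In dN and WN the 2 numbered pairs also did (0.458 and 0.62), but 3 pairs were required. Every other pair of strains had at least 1 same-numbered pair with a correlation under 0.1. Single pairs were higher, such as 0.579 in WN and WI, 0.541 in WN and WA and 0.618 in WA and dN, each for replicate 3. Alternatives were other normalisations, a filter on dim genes, all probe sets, array weights, a replicate block, fits of the compared strains alone and leaving out each array.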

Additional observations from a re-analysis of the deposited data

Results flagged for a closer look

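The CTT1 arrays of the deletion strains lay on opposite sides of their WT arrays with the 2 secreted proteins. All 3 dA arrays were below all 3 WA arrays (log2 fold change -0.92), and all 3 dI arrays were above all 3 WI arrays (0.24, 95% interval -0.26 to 0.73). The difference between these effects was -1.16 ± 0.33 (SE, limma adjusted p = 0.0964 over 5449 genes). It was called under 4 of 25 settings, with array quality weights (-0.99, adjusted p = 0.000444), with only the compared strains in the fit (adjusted p = 0.0159), and without the third or the second dN array (adjusted p = 0.00993 and 0.0385). Over all 25 the difference ran between -1.30 and -0.89 and the adjusted p reached 0.221. It was smallest, -0.89, without the first WA array (adjusted p = 0.186). This interaction was chosen after the values were seen.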

How the results depend on the processing

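Over the 10 genes and all comparisons, 788 of 828 values under other settings stayed called or stayed uncalled, 12 lost the call and 28 gained it. Leaving out single arrays kept 2121 of 2160 in this sense. In both, 0 called values changed sign. Uncalled values could change sign and still count as kept. CTT1 in dN over WN, for example, went from -0.25 to 0.06 without the third dN array. With only the compared strains in the fit, the number called was 2 in WA over WN, 1 in dI over dN, 0 in dA over dN, 2 in dA over dI and 2 in the added interaction. With array quality weights it was 5 in dI over WI, 2 in WI over WN, 5 in dA over dN, 1 in WA over WI, 4 in dA over dI and 2 in each of the 3 interactions. Quantile normalisation gave 1 in the added interaction, as did leaving out dim genes. The cause was not tested.

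Leaving out 1 array gave 2 to 5 called in dA over WA, 2 to 3 in dI over WI, 2 to 4 in dN over WN, 2 to 4 in dA over dN, 4 to 6 in dI over dN, 2 to 4 in WA over WN, 0 to 0 in WI over WN and in WA over WI, 0 to 3 in dA over dI, 0 to 1 in each planned interaction and 0 to 2 in the added one. The counts of 5 in dA over WA, 4 in dA over dN and 3 in dA over dI came without the third dN array.

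The replicate block, in which the unnumbered dN array has a level of its own, gave 0 called in WA over WI and 0 in dA over dI, as without it. It ended the SOD2 call in dN over WN (adjusted p = 0.136) and the CTA1 call in dI over dN (0.144). It gave 3 in dA over WA, 2 in dI over WI, 2 in dN over WN, 2 in dA over dN, 4 in dI over dN, 4 in WA over WN and 0 in WI over WN and in the interactions. With 3 arrays a strain, differences smaller than about the intervals given were not detectable.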

Other observations

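Heme is the cofactor of both catalases and of Ccp1p, and HEM15 and HEM12, genes of its synthesis, were lower in all 3 deletion comparisons. HEM1, another such gene, was called in none of them (limma adjusted p = 0.77 in dA, 0.63 in dI and 0.763 in dN). HEM2 and HEM3, also of heme synthesis, went the other way and are named for that. HEM2 averaged 8.24 in dA, 8.21 in dI and 8.40 in dN, against 7.85 in WA, 8.02 in WI and 7.95 in WN. HEM3 averaged 6.29 in dA, 6.09 in dI and 6.44 in dN, against 5.82 in WA, 5.95 in WI and 5.84 in WN. HEM15, ferrochelatase, the last step, was lower in dA than in WA (log2 fold change -0.91, limma adjusted p = 1.57e-07), in dI than in WI (-1.15, 9.99e-09) and in dN than in WN (-1.49, 5.07e-10). HEM12, uroporphyrinogen decarboxylase, was lower in the same comparisons (-0.56 in dA, adjusted p = 4.76e-05, -0.36 in dI, 0.00245, and -0.32 in dN, 0.00633). In the list of 13 genes for copper, manganese and heme supply, 2 were higher and 2 lower in dA over WA, against 23.2% of all genes. The counts were 0 and 3 in dI over WI, against 20.2%, and 2 and 2 in dN over WN, against 21.5%. Without the third dN array they were 1 and 3 in dN over WN, against 21%. With 13 genes, these counts were close to such shares. The list medians lay between -0.15 and 0.07 over the 7 deletion and secretion comparisons. HEM15 was also higher in dA than in dN (0.39, adjusted p = 0.0017) and in dI than in dN (0.35, 0.00422), comparisons that share the dN arrays.

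Among 9 regulator genes, ADR1, an activator of CTA1 and peroxisomal genes, was lower in dN than in WN (-0.74, adjusted p = 0.0161) and higher in dI than in dN (0.97, 0.00521). MSN2 was lower in dA than in WA (-0.35, adjusted p = 0.00191) and YAP1 higher in dI than in WI (0.28, 0.03). No other list member of this group beyond MSN4, CIN5 and HAP1 was called in the deletion and secretion comparisons, whose list medians lay between -0.05 and 0.06. CIN5, above background on 8 of 18 arrays, averaged 5.09 in dA, 4.97 in dI, 4.08 in dN, 4.43 in WA, 4.08 in WI and 3.96 in WN. HAP1 averaged 7.01 in dA, 6.82 in dI, 6.70 in dN, 6.71 in WA, 6.64 in WI and 6.72 in WN.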
